A study of Mus musculus with 15 samples.

Results

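Aminoacyl-tRNA synthetases, the enzymes that join each amino acid to its tRNA, were followed in heart muscle cells that carried an extra gene for 1 of 2 stress transcription factors. The set was chosen by gene symbol and holds 39 of the 23337 genes in the count table. It comprised 20 genes for cytosolic synthetases, 16 for mitochondrial synthetases (symbols ending in 2) and 3 for non-catalytic scaffold proteins of the multi-synthetase complex. All 39 had enough counts to be tested, among 11814 genes that were.

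The 15 libraries fell into 3 groups of 5: AAV-GFP (the GFP group), AAV-ATF4-2A-GFP (ATF4) and AAV-DDIT3-2A-GFP (DDIT3), where AAV is adeno-associated virus and 2A a peptide that lets 1 transcript give separate proteins. All mice were of the Rosa-Cas9GFP line and so carried Cas9 and GFP themselves, all received a vector encoding GFP on postnatal day 1, and all were 4 weeks old when heart cells were released by Langendorff perfusion and sorted as cardiomyocytes. The promoter of the vectors, the sex of the mice and whether each library was 1 mouse do not appear in the sources used here. P-values therefore measure the spread between these samples, which may in part be technical.

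Each synthetase recognises 1 amino acid, except Eprs, which charges both glutamate and proline. They fall into class I and class II by the fold of the catalytic domain, and in the cytosol several of them join with Aimp1, Aimp2 and Eef1e1 into the multi-synthetase complex. Mitochondria, which fill much of a heart muscle cell, make their own proteins with separate synthetases that are encoded in the nucleus, although Gars and Kars each give rise to a cytosolic and a mitochondrial form. ATF4 is a basic leucine zipper factor of the integrated stress response whose known targets include amino acid transporters and synthetases, and DDIT3 (CHOP) is a related factor of the same response.

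Libraries held 6217744 to 8317249 counts. Values below are CPM (counts scaled to library size with TMM factors), RPKM where levels of different genes are compared (CPM per kilobase of the deposited gene length), and log2 fold changes ± standard error from edgeR. Atf4 stood at 399.9 ± 79.5 CPM in the ATF4 group, 71.1 ± 12.2 in GFP and 66.5 ± 22.9 in DDIT3 (SD, n = 5). Ddit3 stood at 844 ± 179.5, 15.6 ± 1.28 and 29.5 ± 7.62 CPM in DDIT3, GFP and ATF4. Counts do not separate vector from endogenous transcripts, and neither value says how much protein was made. The 8 cardiomyocyte markers summed to 71791 to 118339 CPM in every library. Markers of other cells were also present: 14 endothelial markers summed to 601 to 2034 CPM and 10 leukocyte markers to 11.3 to 27.9 CPM.

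In the ATF4 group 24 of the 39 transcripts differed from GFP at an edgeR adjusted p below 0.05, where 32.2% of all genes tested did. Of these 16 rose and 8 fell, against 16.5% and 15.6% of all genes. All 16 that rose were cytosolic and all 8 that fell were mitochondrial. Cytosolic members rose in 16 of 20 cases, 14 of them at least 2-fold (6.04% of all genes), with a median log2 change of 2.12 against 0.02 over all genes tested. Mitochondrial members had a median of -0.33, and the 3 scaffolds (0 called) a median of 0.26. In bulk samples of sorted cells, fewer cells of a type and less RNA per cell cannot be told apart.

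**Figure D1:**
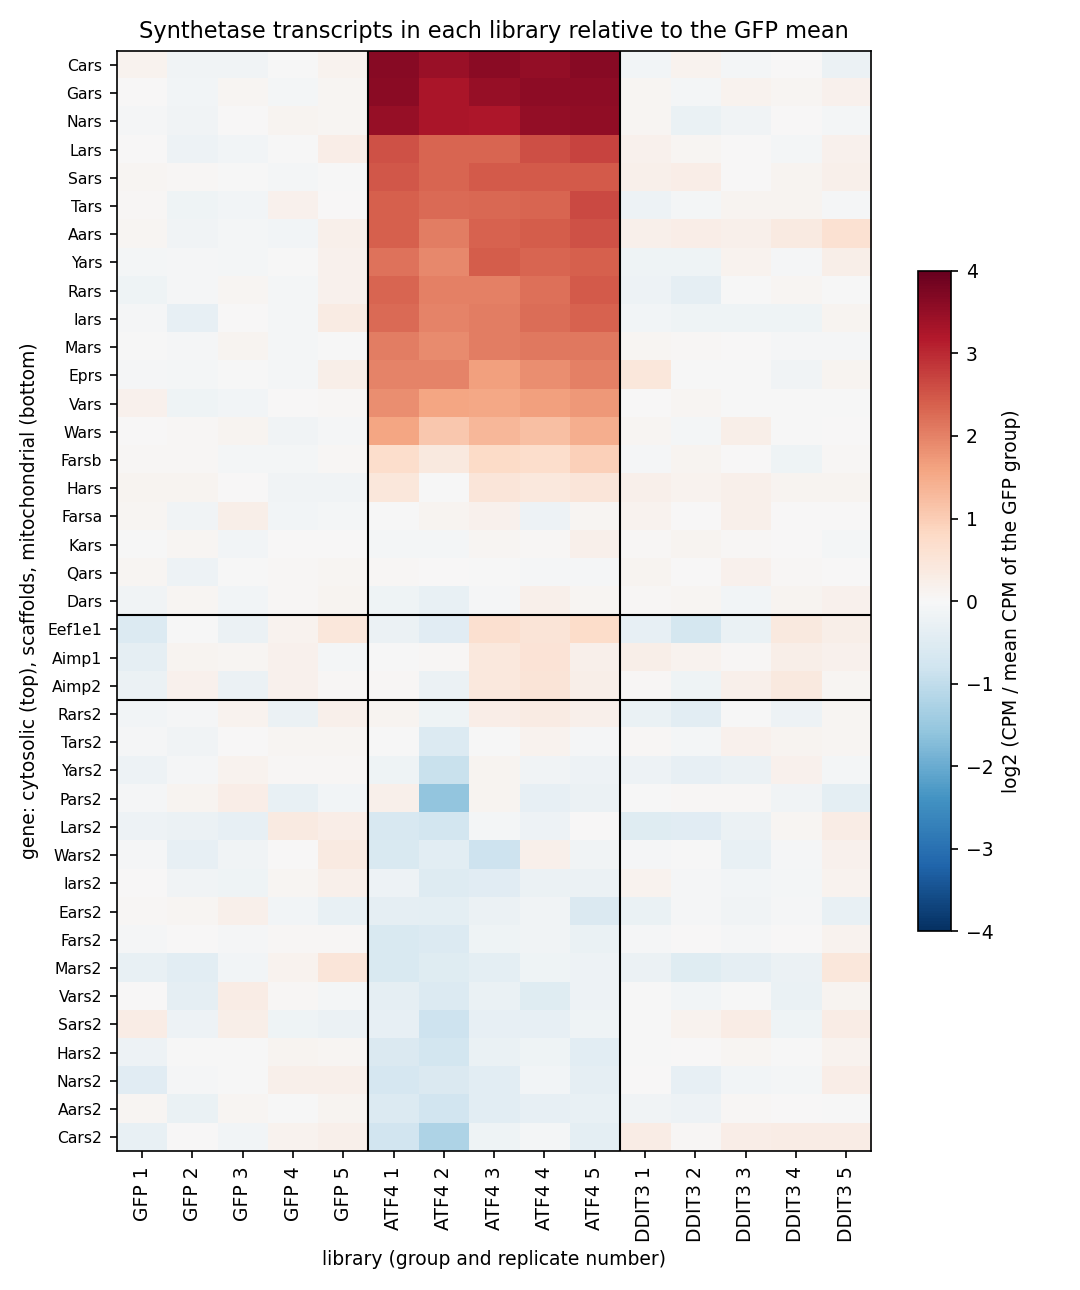
Heat map of the 39 transcripts (rows, by place and by the size of the change in ATF4) in the 15 libraries (columns, by group and replicate number). Colour gives log2 of the CPM over the mean CPM of the GFP group, from -4 (blue) to 4 (red). Cytosolic members from Cars to Farsb are above the GFP mean in each of the 5 ATF4 libraries, most mitochondrial members are pale blue there, and the DDIT3 columns look like the GFP columns.

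The largest rises were those of Cars, Gars and Nars, the synthetases for cysteine, glycine and asparagine. Cars (GRCm38 chromosome 7, 143557230 to 143600090, reverse strand) was at 28.6, 23.6, 23.7, 25.7 and 28.9 CPM in the 5 GFP libraries and at 325, 286, 316, 295 and 329 CPM in the 5 ATF4 libraries. This was 11.9-fold, or 3.57 ± 0.10 on the log2 scale (edgeR adjusted p = 1.29e-14). Cars had the lowest level per length of the 20 cytosolic members in GFP (8.10 RPKM) and ranked 11 of 20 in ATF4 (96.3 RPKM).

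Gars (GRCm38 chromosome 6, 55038007 to 55079500, forward strand) was at 137, 127, 145, 128 and 145 CPM in GFP and 1675, 1312, 1534, 1634 and 1632 CPM in ATF4, a rise of 3.52 ± 0.10 (edgeR adjusted p = 9.61e-15). It was the highest cytosolic member per length in all 3 groups, at 57.0 ± 3.61 RPKM in GFP and 652 ± 61.3 RPKM in ATF4 (SD, n = 5). Because 1 gene gives both forms of the glycine enzyme, these counts cover the cytosolic and the mitochondrial one. Nars was at 109, 102, 113, 121 and 119 CPM in GFP and 1253, 1088, 1074, 1300.2 and 1319 CPM in ATF4, which was 10.7-fold (3.42 ± 0.10, edgeR adjusted p = 1.95e-14). For each of the 3 genes the lowest ATF4 library lay far above the highest GFP library.

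The next 9 members, in order of their change, were Lars, Sars, Tars, Aars, Yars, Rars, Iars, Mars and Eprs, from 5.68-fold for Lars to 3.74-fold for Eprs. The first 8 charge leucine, serine, threonine, alanine, tyrosine, arginine, isoleucine and methionine. Sars was at 93.3, 91.0, 86.8, 84.8 and 87.7 CPM in GFP and 495, 446, 484, 483 and 484 CPM in ATF4 (2.43 ± 0.08, edgeR adjusted p = 8.61e-14). Aars was at 122, 106, 111, 108 and 133 CPM in GFP and 603, 475, 599, 625 and 682 CPM in ATF4 (2.36 ± 0.12, edgeR adjusted p = 1.99e-11). Eprs, the enzyme for glutamate and proline, was at 189, 185, 195, 187 and 230.4 CPM in GFP and 780.0, 787, 619, 712 and 791 CPM in ATF4 (1.90 ± 0.12, edgeR adjusted p = 5.88e-10). None of the 9 had an ATF4 library as low as any GFP library. Iars shares 1656 bases at 96.0% identity with a pseudogene, and Aars overlaps Exosc6 over 1326 bases on the same strand, so that their counts are less certain.

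Smaller rises were seen for Vars and Wars, the valine and tryptophan enzymes. Vars went from 75.8 ± 7.37 to 242 ± 21.3 CPM (1.68 ± 0.09) and Wars from 80.3 ± 5.27 to 203 ± 27.2 CPM (1.34 ± 0.10). In 15 of the 20 cytosolic members every ATF4 library was above every GFP library, as was the case for 11.7% of all genes tested. The exception among the 16 that rose was Hars, the histidine enzyme, at 64.4, 64.6, 60.5, 53.5 and 53.7 CPM in GFP and 81.8, 58.2, 82.6, 79.6 and 82.3 CPM in ATF4 (0.37 ± 0.10, edgeR adjusted p = 0.0105). ATF4 replicate 2 lay among the GFP libraries and the other 4 ATF4 libraries lay above all of them. Hars and Hars2 lie head to head and share 195 bases on opposite strands, which counts without strand cannot assign.

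**Figure D2:**
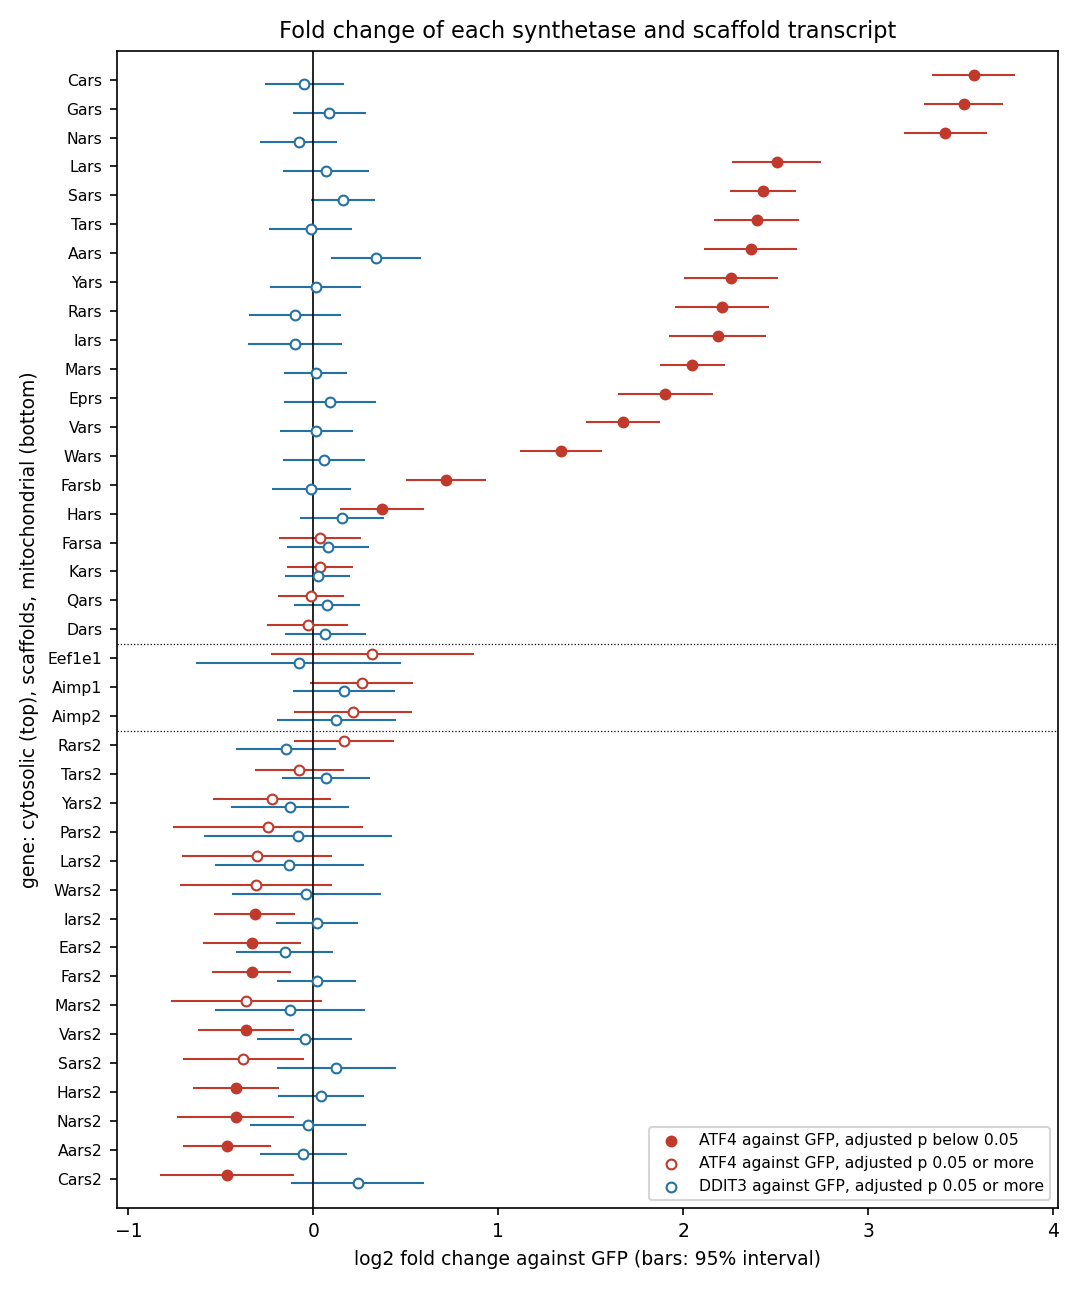
Log2 fold change of each of the 39 transcripts against GFP (points) with its 95% interval (bars), for ATF4 in red and DDIT3 in blue. Filled points passed an edgeR adjusted p of 0.05. Red points spread from -0.47 (Cars2) to 3.57 (Cars) and all blue points lie between -0.15 and 0.34, unfilled.

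Dars, Kars, Qars and Farsa, which charge aspartate, lysine, glutamine and (as the alpha subunit) phenylalanine, did not pass the test. Dars was at 96.7, 110.4, 97.7, 109 and 114 CPM in GFP and 94.3, 86.3, 102, 121 and 112 CPM in ATF4 (-0.03 ± 0.10, edgeR adjusted p = 0.849). Kars was at 119, 128, 114, 124 and 123 CPM in GFP and 115, 116, 127, 126 and 139 CPM in ATF4 (0.04 ± 0.08, edgeR adjusted p = 0.776). Qars was at 58.6, 49.0, 55.1, 57.8 and 58.6 CPM in GFP and 57.7, 56.4, 54.7, 53.6 and 54.4 CPM in ATF4 (-0.01 ± 0.08, edgeR adjusted p = 0.929). In all 3 genes the 2 groups overlapped. The 95% intervals of the log2 changes were -0.25 to 0.19 (Dars), -0.14 to 0.21 (Kars), -0.19 to 0.17 (Qars) and -0.19 to 0.26 (Farsa). All 4 upper bounds lay below the value of Hars (0.37), but the interval of Hars (0.15 to 0.60) overlapped all 4 intervals.

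The phenylalanine enzyme is built from equal numbers of Farsa and Farsb subunits. Farsb was at 101, 101, 93.3, 93.5 and 101 CPM in GFP and 161, 128, 167, 159 and 189.6 CPM in ATF4 (0.72 ± 0.10, edgeR adjusted p = 2.39e-05), with every ATF4 library above every GFP library. Farsa was at 38.5, 33.1, 42.6, 34.0 and 34.5 CPM and 35.9, 39.7, 41.2, 31.9 and 38.4 CPM (0.04 ± 0.10, edgeR adjusted p = 0.823). The ratio of Farsa to Farsb in RPKM was 0.444, 0.384, 0.532, 0.424 and 0.400 in the GFP libraries, 0.260, 0.362, 0.287, 0.234 and 0.236 in ATF4 and 0.497, 0.408, 0.487, 0.504 and 0.427 in DDIT3. All 5 ATF4 libraries had a lower ratio than all 10 others. Farsb shares 250 bases with Sgpp2 on the opposite strand.

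Within the multi-synthetase complex 5 of 8 synthetases rose (Eprs, Iars, Lars, Mars and Rars) and Dars, Kars and Qars were not called, with a median of 1.98. Outside it 11 of 12 rose, all but Farsa, with a median of 2.31. The 3 scaffolds were not called: Aimp1 was at 22.4, 31.3, 30.5, 32.5 and 27.3 CPM in GFP and 28.4, 30.1, 38.6, 42.4 and 33.1 CPM in ATF4 (0.26 ± 0.13, edgeR adjusted p = 0.127). Aimp2 was at 0.22 ± 0.15 (adjusted p = 0.276 from edgeR) and Eef1e1, the least abundant of the 3, at 0.32 ± 0.25 (adjusted p = 0.356). By fold of the catalytic domain, 8 of 9 class I and 7 of 10 class II cytosolic enzymes rose, with medians of 2.19 and 1.54, and Eprs, which holds a domain of each class, was counted in neither. Whether these subsets differ was not tested.

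Summed over the 20 genes, cytosolic synthetase transcripts were 1765, 1675, 1742, 1718 and 1897 CPM in the GFP libraries. They were 8391, 7172, 7671, 8267 and 8757 CPM in the ATF4 libraries, 4.58 times as much on average, and 1888, 1783, 1809, 1778 and 1895 CPM in the DDIT3 libraries. Their share of all counts was 0.168%, 0.854% and 0.180% in GFP, ATF4 and DDIT3. The levels also drew apart: in GFP the highest (Gars) was 7.04 times the lowest (Cars) in RPKM, and in ATF4 the highest (Gars) was 32.0 times the lowest (Qars, 20.3 RPKM). Neighbours in that order often lay within each other's spread, such as Lars (135 ± 14.8 RPKM), Mars (132 ± 7.97) and Sars (129 ± 5.01) in ATF4.

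Among the ATF4 libraries, replicate 2 had the lowest cytosolic sum and the highest Atf4 level. Atf4 was at 398, 538, 351, 359.6 and 352 CPM in ATF4 replicates 1 to 5. Replicate 2 was the lowest ATF4 library for 26 of the 39 members, 13 of them cytosolic, and the highest for 0. Without it the number of cytosolic members that rose was still 16.

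**Figure D3:**
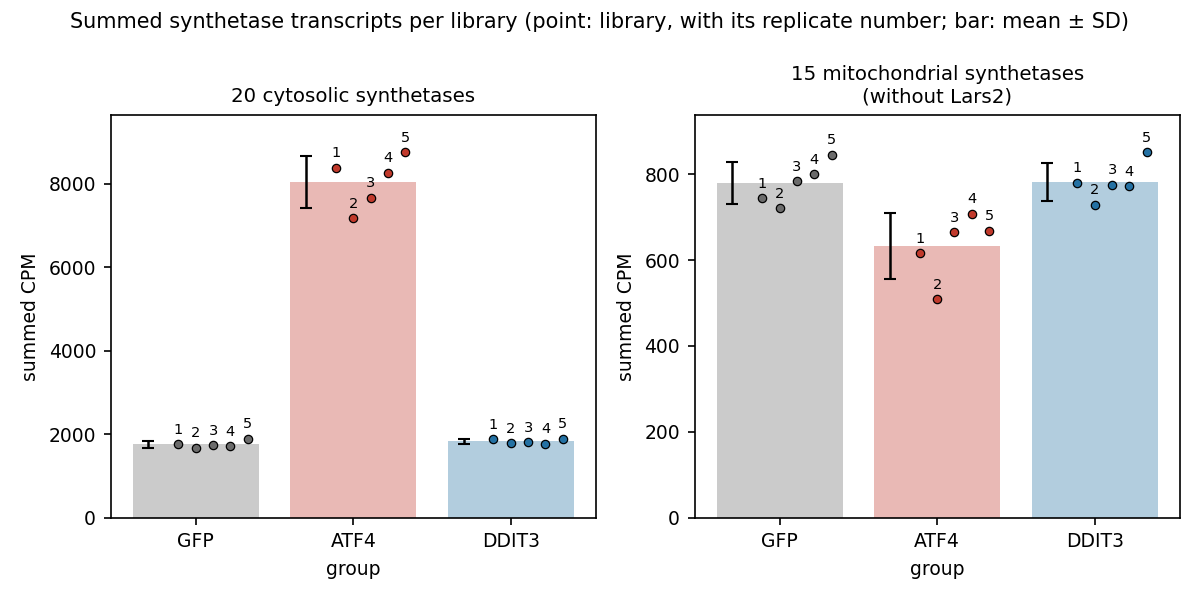
Summed CPM of the 20 cytosolic synthetase transcripts (left) and of the 15 mitochondrial ones without Lars2 (right) in each library. Points are libraries with their replicate number, bars are group means and error bars the SD (n = 5), and both axes start at 0. Cytosolic sums in ATF4 (7172 to 8757) lie apart from those of GFP (1675 to 1897) and DDIT3 (1778 to 1895), and mitochondrial sums in ATF4 (509 to 708) lie below those of both other groups.

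RefSeq promoter windows of 300 bases (250 before the start and 50 after, build GRCm38.p6) were matched for 30 of the 39 members, with none for Cars, Hars, Hars2, Lars, Nars, Pars2, Rars, Vars and Wars. They were searched on both strands for the C/EBP-ATF response element (CARE, TGATGNAA), an element known to bind ATF4 with a C/EBP partner. It was found in 3.97% of all 32851 windows and in those of 5 members: Gars, Tars, Aars, Yars and Iars. These were 5 of the 9 members with a window that rose. Among members with a window, the motif was in 0 of 4 cytosolic ones that did not rise and in 0 of 14 mitochondrial ones. A member was counted if any of its windows matched. With a match in 3.97% of all windows, 0 is common in sets this small, so these counts show no contrast. The cyclic AMP response element TGACGTCA was in 1.79% of windows and in none of the members'. A match describes letters only.

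For each of the 5 members, which were picked because they hold a match, the match nearest the start is shown. Each is printed on the strand that reads TGATG, with the motif in capitals, 11 bases on either side and the place of its first base on the gene's strand counted from the start.
Gars, -30 (chr6:55037960-55037989, - strand): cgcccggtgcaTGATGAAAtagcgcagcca
Tars, -15 (chr15:11399655-11399684, + strand): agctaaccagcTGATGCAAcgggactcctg
Aars, 10 (chr8:111033840-111033869, - strand): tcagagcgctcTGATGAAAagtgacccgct
Yars, 4 (chr4:129189895-129189924, + strand): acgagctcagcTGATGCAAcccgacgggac
Iars, 8 (chr13:49682126-49682155, - strand): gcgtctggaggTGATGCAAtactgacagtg

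The window before the start is shown for Gars, which had the largest rise of the members with a match, and for Tars, whose match lies closest before the start. Both are on the gene's own strand, so the motif in capitals reads as its reverse complement, and Tars stops where its GENCODE transcript begins.
Gars (chr6:55037751-55038000, + strand): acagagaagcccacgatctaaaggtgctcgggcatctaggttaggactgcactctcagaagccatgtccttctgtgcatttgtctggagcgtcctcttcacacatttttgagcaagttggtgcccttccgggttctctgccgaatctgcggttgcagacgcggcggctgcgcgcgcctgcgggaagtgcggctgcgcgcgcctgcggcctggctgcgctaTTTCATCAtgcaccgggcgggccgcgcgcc
Tars (chr15:11399666-11399908, - strand): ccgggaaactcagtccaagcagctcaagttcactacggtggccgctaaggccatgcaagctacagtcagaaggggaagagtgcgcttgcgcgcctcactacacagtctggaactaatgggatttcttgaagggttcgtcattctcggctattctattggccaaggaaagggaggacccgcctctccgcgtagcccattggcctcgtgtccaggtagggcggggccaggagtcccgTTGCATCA
The Gars stretch is 62.4% G and C and the Tars stretch 57.6%.

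Mitochondrial synthetases were lower in ATF4 for 8 of 16 members, against 15.6% of all genes tested, and 0 were higher (1, Rars2, with total count scaling, adjusted p = 0.0398). Of the 16 log2 changes 15 were below 0, and 14 with total count scaling, but the changes were small, at most 0.47 in size. Aars2, Cars2, Hars2, Nars2, Vars2, Fars2, Ears2 and Iars2 fell, the enzymes for alanine, cysteine, histidine, asparagine, valine, phenylalanine, glutamate and isoleucine. In 3 of the 16 every ATF4 library was below every GFP library, where 9.79% of all genes tested had that pattern.

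Aars2 was at 70.3, 55.3, 70.5, 65.8 and 73.0 CPM in GFP and 45.7, 38.995, 49.8, 53.4 and 54.5 CPM in ATF4 (-0.47 ± 0.11, edgeR adjusted p = 0.00323), with no overlap. Fars2 was at 91.2, 95.3, 92.1, 98.4 and 97.5 CPM in GFP and 62.6, 64.5, 84.5, 85.3 and 79.5 CPM in ATF4 (-0.33 ± 0.10, edgeR adjusted p = 0.0143), also with no overlap. Unlike the cytosolic enzyme, Fars2 works as a single chain. Iars2 was at 172, 155, 151, 179 and 198 CPM in GFP and 148, 121, 125, 146 and 146 CPM in ATF4 (-0.32 ± 0.10, edgeR adjusted p = 0.0228), and it shares 2034 bases with Rab3gap2 on the opposite strand. Its call was lost without GFP replicate 5 (adjusted p = 0.0663) or ATF4 replicate 3 (0.0522).

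Hars2 was at 42.1, 48.1, 48.1, 51.5 and 51.0 CPM in GFP and 32.3, 28.9, 39.8, 42.9 and 36.3 CPM in ATF4 (-0.42 ± 0.11, edgeR adjusted p = 0.00639), so that 1 ATF4 library reached into the GFP range. Cars2 was at 44.1, 54.0, 50.2, 59.0 and 62.3 CPM in GFP and 31.8, 23.2, 48.1, 50.5 and 41.4 CPM in ATF4 (-0.47 ± 0.17, edgeR adjusted p = 0.0404). Here ATF4 replicates 3 and 4 lay among the GFP libraries and replicate 2 was lowest. Nars2 (-0.42 ± 0.15, adjusted p = 0.0348), Vars2 (-0.37 ± 0.12, adjusted p = 0.025) and Ears2 (-0.33 ± 0.12, adjusted p = 0.0441) also overlapped with GFP.

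The calls of these last 4 were sensitive to single libraries. Cars2 lost its call without any 1 of GFP replicates 2, 3, 4 and 5 or ATF4 replicates 1, 2 and 5 (adjusted p 0.0520 to 0.103). Nars2 lost it without any 1 of GFP replicates 3, 4 and 5 or ATF4 replicates 1, 2, 3 and 5 (0.0506 to 0.0905). Ears2 lost it without any 1 of GFP replicates 1, 2 and 3, ATF4 replicates 1, 2 and 5 or DDIT3 replicate 3 (0.0521 to 0.113), and Vars2 without any 1 of GFP replicates 3 and 4 or ATF4 replicates 2 and 4 (0.0522 to 0.0816). Sars2 (-0.38 ± 0.15, edgeR adjusted p = 0.0611) gained a call without GFP replicate 2 (0.0495), GFP replicate 5 (0.0471) or ATF4 replicate 5 (0.0495).

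Only the calls of Aars2 and Hars2 among these 8 held in all 23 alternative analyses. The number called fell to 4 without GFP replicate 3 or ATF4 replicate 2, to 5 without GFP replicate 4 or ATF4 replicate 1, and to 2 with libraries scaled by total count alone. That scaling moved the median of all genes from 0.02 to 0.18 and the share of calls that were higher from 51.4% to 72.2%. Relative to the median of all genes the mitochondrial median was -0.36 with either scaling. A change of scaling shifts all genes by nearly the same amount. This difference therefore cannot show whether the fall depends on the scaling.

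Beside Sars2, 7 others were not called. Mars2 (-0.36 ± 0.19, edgeR adjusted p = 0.148), Wars2 (-0.31 ± 0.19, adjusted p = 0.22), Pars2 (-0.24 ± 0.23, adjusted p = 0.453), Yars2 (-0.22 ± 0.15, adjusted p = 0.256) and Tars2 (-0.08 ± 0.11, adjusted p = 0.635) had negative values. Rars2, the mitochondrial arginine enzyme, had the single positive value: it was at 35.8, 37.5, 42.7, 33.2 and 45.2 CPM in GFP and 42.2, 34.6, 47.1, 49.0 and 45.1 CPM in ATF4 (0.17 ± 0.12, edgeR adjusted p = 0.329). Pars2 and Wars2 were the least abundant members per length in GFP, at 2.87 and 2.56 RPKM, and their intervals were among the widest (-0.76 to 0.27 and -0.72 to 0.10).

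Lars2, the mitochondrial leucine enzyme, stood apart in level from every other member. It was at 2336, 2293, 2173, 3454 and 3243 CPM in GFP, 1724, 1627, 2530.4, 2326 and 2737 CPM in ATF4 and 1919, 1965, 2272, 2841 and 3349 CPM in DDIT3. In RPKM it was at 696 in GFP, where the next mitochondrial member, Iars2, was at 48.3. The change in ATF4 was -0.30 ± 0.19 (edgeR adjusted p = 0.228; 95% interval -0.71 to 0.10), and replicates 4 and 5 were the highest of GFP and of DDIT3. Stretches of 97 and 72 bases of the Lars2 transcript match AA474408 (94.8%) and Gm15564 (98.6%), both outside the count table, and how much of the Lars2 count comes from such copies was not tested.

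Without Lars2 the 15 other mitochondrial members summed to 744, 721, 783, 799.9 and 845 CPM in GFP. They summed to 615, 509, 665, 708 and 669 CPM in ATF4 and 780.3, 728, 775, 772 and 851 CPM in DDIT3. In CPM every ATF4 library was below every library of the other 2 groups, at 0.813 of the GFP mean. As a share of all counts, without TMM factors, the groups overlapped. The shares were 0.0559% to 0.0728% in ATF4, 0.0708% to 0.0765% in GFP and 0.0722% to 0.0796% in DDIT3.

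For 13 amino acids the set held 1 cytosolic and 1 mitochondrial gene, each for that amino acid alone. In all 13 the log2 change in ATF4 was higher for the cytosolic transcript, by a median of 2.48 (cytosolic minus mitochondrial). Each of these cytosolic members was itself called higher in ATF4, and the 4 cytosolic members not called were in no pair. Phenylalanine was left out, with subunits from Farsa (0.04) and Farsb (0.72) beside Fars2 (-0.33). Glutamate and proline, which share Eprs (1.90), were also left out (Ears2 -0.33, Pars2 -0.24). The RPKM ratio of cytosolic to mitochondrial enzyme was above 1 in 9 pairs in GFP and in 12 pairs in ATF4. For cysteine it was 0.282 ± 0.0510 in GFP and 4.93 ± 1.54 in ATF4 (SD, n = 5), for isoleucine 0.529 ± 0.0611 and 3.002 ± 0.105, and for tyrosine 0.655 ± 0.0692 and 3.73 ± 0.541. These were the 3 pairs in which the cytosolic member went from the lower to the higher of the pair.

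The widest ratio in ATF4 was that of asparagine, at 4.68 ± 0.779 in GFP and 66.3 ± 9.56 in ATF4. For tryptophan it was 11.2 ± 2.42 and 36.7 ± 12.02. Histidine moved least, from 1.92 ± 0.318 to 3.31 ± 0.399. For leucine, with the abundant Lars2, the ratio stayed below 1, at 0.0351 ± 0.00547 in GFP and 0.248 ± 0.0512 in ATF4.

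**Figure D4:**
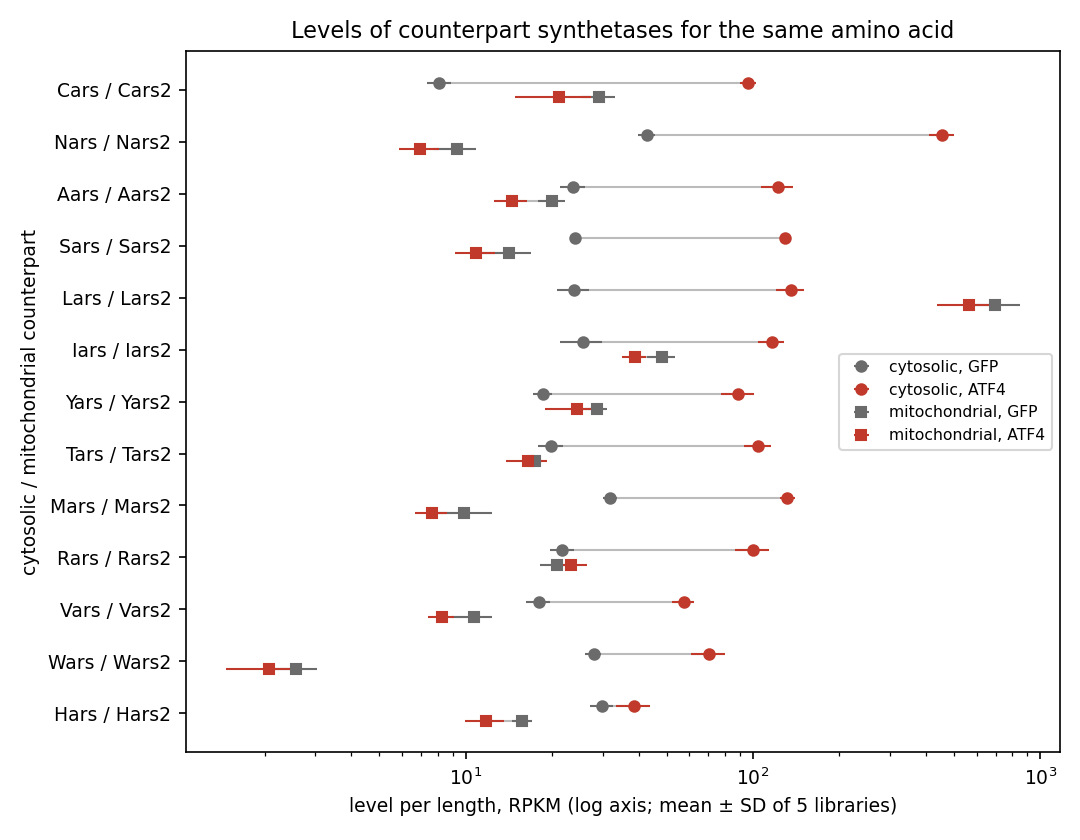
Mean level in RPKM (log axis; bars, SD of 5 libraries) of the cytosolic (circles) and mitochondrial (squares) synthetase for each of 13 amino acids, in GFP (grey) and ATF4 (red). Every red circle lies to the right of its grey circle, 12 of the 13 red squares lie to the left of their grey square (the exception is Rars2), and Lars2 is the only square above 100 RPKM.

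In the DDIT3 group 0 of the 39 members passed edgeR's test against GFP, where 0.863% of all genes tested did, 1 had an unadjusted p below 0.05, and DESeq2 also called 0. The median log2 change was 0.02 and the range -0.15 (Ears2) to 0.34 (Aars). For Gars, Cars and Nars the values were 0.09 ± 0.09, -0.05 ± 0.10 and -0.08 ± 0.10, and the 95% interval for Cars was -0.26 to 0.16. Ddit3 itself rose by 5.75 ± 0.20 (edgeR adjusted p = 2.30e-12).

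The member with an unadjusted p below 0.05 was Aars, at 134, 138, 135, 149 and 176 CPM in the 5 DDIT3 libraries (0.34 ± 0.11, edgeR adjusted p = 0.234). All 5 lay above all 5 GFP libraries, a pattern that 1.68% of all genes tested had. Same-numbered GFP and DDIT3 libraries deviated together (correlations of 0.205 to 0.511). With the replicate number as a block Aars passed the test (adjusted p = 0.0266), when 2.73% of all genes did.

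ATF4 and DDIT3, which were each compared with the same GFP libraries, were also compared directly. Against DDIT3, 23 members were called (33.8% of all genes tested), 15 higher and 8 lower in ATF4, where 17.8% and 16% of all genes tested were. Of the calls over all genes 52.7% were higher, and 67.8% with total count scaling. All 15 were cytosolic, and in all 15 every ATF4 library was above every DDIT3 library (12.3% of all genes). Hars was at 0.22 ± 0.10 (edgeR adjusted p = 0.118), and passed the test without ATF4 replicate 2 (adjusted p = 0.0127). Cars was 3.62 ± 0.10 higher, Nars 3.50 ± 0.10, Gars 3.43 ± 0.10 and Aars 2.03 ± 0.11. The 8 lower ones were Cars2 (-0.71), Sars2 (-0.50), Hars2 (-0.46), Aars2 (-0.41), Nars2 (-0.39), Fars2 (-0.35), Iars2 (-0.34) and Vars2 (-0.32). In 5 of them, Cars2, Hars2, Aars2, Fars2 and Iars2, every ATF4 library was below every DDIT3 library (10.3% of all genes).

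Several of these calls rested on single libraries. Nars2 lost its call without any 1 of GFP replicates 2 and 3, ATF4 replicates 1, 2, 3 and 5 or DDIT3 replicates 1, 3, 4 and 5 (adjusted p 0.0532 to 0.132). Vars2 lost it without any 1 of GFP replicates 1 and 4, ATF4 replicates 1, 2 and 4 or DDIT3 replicates 1, 2, 3 and 5 (0.0529 to 0.109). Rars2 (0.31 ± 0.12, edgeR adjusted p = 0.0596) passed the test as higher without ATF4 replicate 2 (0.0199) or DDIT3 replicate 5 (0.0393), and with the replicate block (0.0137).

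Related genes were grouped by function. Of 10 mitochondrial translation factors 7 fell in ATF4 and 0 rose, where 15.6% of all genes tested were lower and 16.5% higher. Their median change was -0.44, with Tufm, the mitochondrial elongation factor Tu (-0.70 ± 0.10, edgeR adjusted p = 3.19e-05), the initiation factor Mtif2 (-0.71 ± 0.14) and Guf1 (-0.44 ± 0.10) among those that fell. With total count scaling 4 of the 10 fell, Tsfm, Gfm2 and Mtif3 losing their calls (adjusted p 0.0535, 0.241 and 0.0890). With 1 library left out 6 to 8 of the 10 fell. Gfm2 lost its call without GFP replicate 1, 3 or 5 or ATF4 replicate 2, 3 or 4 (edgeR adjusted p 0.0526 to 0.102). Mtif3 lost its call without ATF4 replicate 1 (0.0543). Of 4 genes for mitochondrial transamidation, which makes the glutamine-charged tRNA, and initiator formylation, 3 fell: Mtfmt (-0.43 ± 0.14), Pet112l, the older symbol of Gatb (-0.33 ± 0.11), and Qrsl1 (-0.66 ± 0.23). The call of Mtfmt was lost without ATF4 replicate 5 (adjusted p = 0.0587), that of Pet112l without any 1 of GFP replicates 2 and 5 or ATF4 replicates 1 and 2 (0.0534 to 0.0899) and that of Qrsl1 without any 1 of GFP replicates 3, 4 and 5 or ATF4 replicates 1 and 2 (0.0604 to 0.0910). With total count scaling 0 of the 4 were called (0.124, 0.156 and 0.0714 for Mtfmt, Pet112l and Qrsl1). Xpot, which exports tRNA from the nucleus, rose by 1.66 ± 0.13 (edgeR adjusted p = 2.63e-08).

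Of 21 genes for tRNA processing, modification and export, 3 rose (Xpot, Trmt1 and Pus1) and 3 fell (Trmt5, Mto1 and Rg9mtd1, the older symbol of Trmt10c). These counts were close to the shares of all genes tested, of which 16.5% were higher and 15.6% lower. Trmt1 was at 0.54 ± 0.11 and Trmt5 at -0.88 ± 0.15, both tRNA methyltransferases. Rg9mtd1 lost its call without any 1 of GFP replicates 3, 4 and 5 or ATF4 replicates 1, 2 and 3 (adjusted p 0.0548 to 0.108), and Pus1 without any 1 library other than GFP replicate 3 and ATF4 replicates 1 and 2 (0.0564 to 0.115). With total count scaling 7 of the 21 rose and 1 fell, when 35.3% of all genes tested were called and 72.2% of those calls were higher. Of 6 cytosolic elongation factors 2 rose, Eef1a1 (2.09 ± 0.11) and Eef2 (0.26 ± 0.08), and Eef1a2 fell (-0.33 ± 0.10; adjusted p = 0.148 with total count scaling). Eef1a1 has near-identical copies, so its count is uncertain. Eef2 lost its call without any 1 of GFP replicates 3 and 5 or ATF4 replicates 4 and 5 (adjusted p 0.0535 to 0.0709). Of 4 deacylases and editing factors 2 fell, Aarsd1 (-0.49 ± 0.11), which edits mischarged alanine tRNA, and Prorsd1 (-0.54 ± 0.17; 0.0560 to 0.0686 as adjusted p without any 1 of GFP replicates 4 and 5 or ATF4 replicates 2 and 5), while Dtd1 was at 0.28 ± 0.11 (edgeR adjusted p = 0.0655). With total count scaling Prorsd1 lost its call (adjusted p = 0.0792) and Dtd1 was called higher (0.00935). Of 6 genes for selenocysteine incorporation Eefsec rose (0.65 ± 0.15) and Pstk fell (-0.70 ± 0.14), with Secisbp2 at -0.36 ± 0.15 (edgeR adjusted p = 0.0822). Secisbp2 was called lower without ATF4 replicate 2 (adjusted p = 0.0253). None of 3 genes linked to the sensing of uncharged tRNA passed the test: Eif2ak4, the kinase GCN2, was at 0.28 ± 0.21, its partner Gcn1l1 at 0.08 ± 0.11 and Impact at -0.12 ± 0.42. In DDIT3 none of the genes of these lists was called.

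Markers of other cells also moved with the ATF4 group. Of all genes tested 16.5% were higher and 15.6% lower in ATF4 than in GFP. Of 14 endothelial markers 12 were higher (9 to 13 with 1 library left out), such as Eng (0.85 ± 0.17) and Tie1 (0.91 ± 0.20), and their summed level was 1399 to 2034 CPM in ATF4, 605 to 1232 in GFP and 601 to 1048 in DDIT3. Of 9 pericyte and smooth muscle markers 5 were higher, among them Cspg4 (0.97) and Pdgfrb (0.92), at 735 to 1415, 871 to 1361 and 713 to 1424 CPM summed in ATF4, GFP and DDIT3. The 5 became 2 without GFP replicate 5 or ATF4 replicate 1, and 3 without GFP replicate 1 or 3 or ATF4 replicate 4, with Rgs5, Kcnj8 and Notch3 the genes whose calls were lost. Of 8 cardiomyocyte markers 4 were lower, among them Pln (-0.75) and Tnni3 (-0.56), at 71791 to 94178 CPM in ATF4 against 89175 to 118339 in GFP and 87369.7 to 98391 in DDIT3. With total count scaling 2 of the 8 were lower.

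Of 9 fibroblast markers tested Postn was higher (1.09) and Fbln1 lower (-1.88). The summed level of all 10 listed was 278 to 723 CPM in ATF4, 285 to 575 in GFP and 195 to 441 in DDIT3. No leukocyte marker was called among 6 tested, and the sums of all 10 listed were 11.3 to 27.9 CPM in ATF4, 19.1 to 27.0 in GFP and 14.01 to 24.1 in DDIT3. Of 16 interferon-stimulated genes 3 were higher, among them Ifi27l1 (0.96) and Rsad2 (0.90), at 341 to 453 CPM in ATF4, 184 to 455 in GFP and 184 to 272 in DDIT3. Rsad2 lost its call without any 1 of GFP replicates 2 to 5 or ATF4 replicates 1 and 4 (adjusted p 0.0514 to 0.110). The 3 became 1 without any 1 of GFP replicates 3 and 5 or ATF4 replicates 1 and 4, and 8 without ATF4 replicate 2, when Ifit1, Ifit3, Oasl2, Ifi44 and Gbp3 were called too. With total count scaling 7 were higher, when 35.3% of all genes tested were called and 72.2% of those calls were higher. In DDIT3 against GFP, Fbln1 was lower (-0.88 ± 0.14) and no other gene of these lists was called without the replicate block. With it Pdgfra was also lower (-0.86, adjusted p = 0.0347) and Ifi27l1 higher (0.52, 0.0493). The part of these cells or genes in the changes of the synthetases was not tested.

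In the authors' deposited table for ATF4 against GFP, 16 of the 39 members were higher and 6 lower at an adjusted p below 0.05, and in their table for DDIT3 0 were.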

How the data were processed

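PolyA RNA of 15 libraries of sorted mouse cardiomyocytes was sequenced after SMART-Seq v4 and Nextera XT preparation, per the labels' protocols. SMART-Seq3 stands in the label of GFP replicate 5 and SMART-Seq2 in the other 14. The submitters' processing notes name STAR, featureCounts, DESeq2, DESeq and mm10, without versions. The authors' deposited count table holds whole-number counts per gene and a gene length column (other unit) for 23337 genes. For each factor against GFP there is also a table of the authors' results, holding per the file headers a log2 fold change, a Wald test score and p-values. These are used only where the authors' deposited table is named.

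Groups and replicate numbers came from the titles. Counts were tested with edgeR 4.0.16 (R 4.3.3; robust quasi-likelihood test, TMM factors, filterByExpr), fitted to all 15 libraries by group alone (12 residual degrees of freedom, biological coefficient of variation 19.6%), Benjamini-Hochberg adjustment over all 11814 genes tested and a threshold of 0.05; 11523 genes were filtered out. CPM used TMM library sizes and RPKM divided them by the deposited length. Standard errors were the size of the log2 change over the square root of the test's F value. Intervals (95%) used them with 12 degrees of freedom. The test itself also borrows degrees of freedom across genes, so the intervals can be wider than its p-values imply. Group errors are SD over 5 libraries. Where groups do not overlap, the share of all genes with that pattern is given.

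The 39 members and the lists of related genes and markers were chosen with earlier results of these data known. All members could be named; of each pathway list the 3 genes, and of each marker list the 2 genes, with the lowest p in ATF4 against GFP were named. Other named genes of these lists were chosen after their values were seen. 4 genes were found under an older symbol. Of the lists, 1 gene is not reported here, nor is 1 further promoter match of a member. The model was tested on simulated data for ATF4 against GFP: of 100 genes changed 4-fold 100 were called, of 100 changed 2-fold 96, and of 11593 unchanged 17. The simulation gave all genes 1 common spread, taken from the GFP libraries. It changed only well-counted genes, as many up as down. Changes smaller than 2-fold, such as those of the mitochondrial members, were not simulated. No library was a copy of another (chi-square per degree of freedom 8.60 to 50.4). Same-numbered libraries deviated together in 5 of 5 pairs for DDIT3 and GFP (0.205 to 0.511) and for ATF4 and DDIT3 (0.135 to 0.497). The numbers come from the titles, which do not say what they pair. The counting is not stated to use strand; transcripts sharing at least 70 bases at 94% identity with another gene were found with blastn 2.17.0 and GENCODE vM21. The alternatives were DESeq2 1.42.0, other scaling, other filters, 2 groups only, a replicate block and leaving out libraries.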

Additional observations from a re-analysis of the deposited data

Results flagged for a closer look

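Among 117 sets of 5 libraries (39 members in 3 groups), 7 had 1 library whose gap to the nearest of the others was over 0.71 of the whole range, and chance gives about 1 in 20. Hars in ATF4 replicate 2 was at 58.2 CPM, below 79.6 in the next library, and Sars in the same library at 446 CPM, below 483. Eprs in GFP replicate 5 was at 230.4 CPM, above 195, and Yars in the same library at 60.5 CPM, above 52.3. Iars in DDIT3 replicate 5 was at 121 CPM, above 105, and Mars2 in the same library at 38.9 CPM, above 24.1. Cars2 in DDIT3 replicate 2 was at 55.2 CPM, below 64.3. GFP replicate 5 is the library whose label names another kit.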

How the results depend on the processing

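Across 23 alternatives 16 cytosolic members were higher in ATF4 than in GFP in every one, and the same 16 kept their calls. The number of mitochondrial members lower in ATF4 than in GFP (8) was 2 with total count scaling, where 1 (Rars2, adjusted p = 0.0398) was higher, 3 without the second ATF4 and DDIT3 libraries together, and 4 to 8 when 1 library was left out. Against DDIT3 the 8 lower became 4 with total count scaling and 5 without both second libraries, and 6 to 8 with 1 library left out. Of the single calls against GFP, Fars2 was lost with total count scaling and Iars2 in 4 alternatives. Cars2, Ears2, Nars2 and Vars2 were lost in 10, 11, 9 and 6. Sars2 passed in 5. Over the 39 members, 41 of the 897 alternative values against GFP ended a call and 9 made one.

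With the replicate number as a block 1 member, Aars, was called in DDIT3 against GFP, and 322 genes in all where 102 were without the block; DESeq2 called 224 genes. Calls rose over all genes tested, from 32.2% to 43.1% in ATF4 against GFP and from 33.8% to 44.3% in ATF4 against DDIT3. The block called 11 mitochondrial members lower in ATF4 than in GFP, with Sars2 (adjusted p = 0.0304), Lars2 and Mars2 added, and Rars2 higher than in DDIT3, and it ended no member's call. In ATF4 against GFP it called 7 interferon-stimulated genes higher where 3 were, 5 tRNA processing genes higher where 3 were and 3 selenocysteine genes lower where 1 was. For ATF4 and GFP 4 of 5 same-numbered pairs correlated above 0.1 (0.0783 to 0.386) and 4 of 5 best with their own number. For ATF4 and DDIT3 these were 5 of 5 and 4 of 5, and for DDIT3 and GFP 5 of 5 and 5 of 5. In each comparison the samples may share only a number.

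Every member had 20 counts or more in every library. Standard errors of the change in ATF4 against GFP ran from 0.08 (Mars) to 0.25 (Eef1e1), with 0.23 for Pars2 and 0.19 for Wars2, which have low counts, but also 0.19 for Lars2, which has high counts. How far depth limited these values was not tested.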

Other observations

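Within groups the libraries that were highest or lowest differed in number of members. In GFP, replicate 5 was the highest of the 5 libraries for 18 of the 39 members and the lowest for 2, and replicate 2 was the highest for 3 and the lowest for 16. In ATF4, replicate 5 was the highest for 15 and the lowest for 1, replicate 4 the highest for 13 and the lowest for 2, and replicate 2 the highest for 0 and the lowest for 26. In DDIT3, replicate 5 was the highest for 15 and the lowest for 6, and replicate 2 the highest for 7 and the lowest for 13. The same counts over all genes tested were not made.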
